A study of Mus musculus with 4 samples.

Results

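The genes described are 10 members of the Krüppel-like factor (KLF) family of transcription factors, Klf3, Klf4, Klf5, Klf6, Klf7, Klf9, Klf10, Klf11, Klf13 and Klf16. They were taken by symbol from the deposited gene annotation and joined by Ensembl identifier to the count table, which found all 10 among 54232 genes. The table lists 17 genes with a KLF symbol, so 7 are not in the set. The members were chosen by symbol but with the measured difference between the treated and untreated libraries already known, since Klf10 had passed the threshold there. Their changes are therefore given as a description. The cells were RPP631, a line of small cell lung cancer from the mouse. For 48 h they received either the vehicle DMSO or YKL at 100 nM, an agent that the series describes as inhibiting CDK7, the kinase subunit of TFIIH. RNA was sequenced in bulk from 2 libraries in each group. The labels give neither the genotype of the line nor whether the libraries are from different cultures, and every p-value here covers only the scatter of these samples, which may be technical.

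KLF proteins bind DNA through C-terminal C2H2 zinc fingers that recognise GC-rich sequences, GC boxes and CACCC boxes, and they share these fingers with the Sp factors. Outside the fingers they differ. Klf9, Klf10, Klf11, Klf13 and Klf16 recruit the Sin3 corepressor, Klf3 recruits the corepressor CtBP, and Klf4, Klf5, Klf6 and Klf7 mostly work as activators that bind histone acetyltransferases. Many of the transcripts are short-lived and respond within hours to growth factors, hormones or stress. Klf10 and Klf11 are known as early genes induced by transforming growth factor beta (TGF-beta).

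The assigned counts per library ran from 29817387 to 34189709. Of all genes, 16749 passed the low-count filter, and all 10 members were among them. Markers of pulmonary neuroendocrine cells used for the check (11 genes, among them Chga and Syp) were all tested, with a summed level of 4257 and 4260 CPM, the usual scaling of counts by library size, in DMSO and 4199 and 3922 CPM in YKL. Of these, 1 was called, the lung transcription factor Nkx2-1, which fell from 406 ± 3.25 to 184 ± 23.4 CPM. The line carried the markers of its label. Fibroblast markers summed to 15.2 and 28.3 CPM in DMSO and 50.6 and 20.4 CPM in YKL, most of it Pdgfra. The fibroblast genes Col1a2, Col3a1 and Lum did not pass the filter. Blood and immune markers summed to 3.35 and 5.52 CPM in DMSO and to 8.84 and 5.59 CPM in YKL. Cd3e was at 0 counts in every library, whereas Ptprc went from 0 and 2 counts with DMSO to 25 and 23 with YKL. Ptprc was called higher (log2 fold change 4.46 ± 0.96, edgeR adjusted p = 0.0392), at a mean of only 0.765 CPM in YKL. It was the 1 call among the 5 tested blood and immune markers, where 2.10% of all tested genes rose. Endothelial markers summed to between 44.3 and 75.4 CPM over the libraries, nearly all of it Vwf. Markers of other lung epithelium summed to between 7.20 and 16.3 CPM, most of it Foxj1. The share of mitochondrial transcripts was 1.01% and 1.14% for DMSO and 1.25% and 1.78% for YKL. Their part in the KLF values was not tested.

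The upstream sequences of members are shown for the boxes that KLF proteins themselves bind. The RefSeq promoter table (GRCm38.p6) held 7 of the 10 members and not Klf5, Klf10 or Klf16. Of the 7, Klf11 is the nearest relative of Klf10, Klf6 had the lowest fitted change of the set, Klf13 was the most abundant member in DMSO, and Klf9 had nearly the same level in both groups. Each sequence starts 250 bases before the annotated start, and it ends before the first base that GENCODE M21 places in an exon of the gene. Capitals mark GC boxes (GGGCGG or its reverse complement CCGCCC) and CACCC boxes (CACCC or GGGTG), which can overlap each other.
Klf11, chr12:24651121-24651273, + strand: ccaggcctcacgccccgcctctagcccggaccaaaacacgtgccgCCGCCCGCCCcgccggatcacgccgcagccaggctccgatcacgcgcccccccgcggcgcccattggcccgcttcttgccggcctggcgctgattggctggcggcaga
Klf6, chr13:5861239-5861481, + strand: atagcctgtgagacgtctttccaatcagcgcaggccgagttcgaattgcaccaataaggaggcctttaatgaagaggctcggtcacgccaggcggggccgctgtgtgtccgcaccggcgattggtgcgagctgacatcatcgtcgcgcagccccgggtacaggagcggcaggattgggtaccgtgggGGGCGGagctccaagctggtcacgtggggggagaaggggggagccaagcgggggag
Klf13, chr7:63938916-63939165, - strand: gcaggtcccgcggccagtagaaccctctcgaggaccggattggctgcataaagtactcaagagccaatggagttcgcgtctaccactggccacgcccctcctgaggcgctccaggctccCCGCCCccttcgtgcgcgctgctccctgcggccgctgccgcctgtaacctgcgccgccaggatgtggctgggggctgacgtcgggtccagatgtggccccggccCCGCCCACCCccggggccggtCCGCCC
Klf9, chr19:23140976-23141225, + strand: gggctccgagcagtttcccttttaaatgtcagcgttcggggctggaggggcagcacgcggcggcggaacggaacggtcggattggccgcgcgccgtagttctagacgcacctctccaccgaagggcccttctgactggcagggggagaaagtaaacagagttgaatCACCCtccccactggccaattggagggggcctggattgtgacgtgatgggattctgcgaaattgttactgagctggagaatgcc

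Over the full 250 bases before the start, a GC box lay in 6 of the 7 members, against 32.7% of 32851 promoters in the table. The exception was Klf9, whose window held a single CACCC box. A CACCC box was found in 4 of the 7 and in 52.0% of all promoters. The most boxes of both kinds were in Klf3, with 6 GC boxes and 5 CACCC boxes. Part of the window lies in annotated exons of the gene in Klf3, Klf6, Klf7 and Klf11. Only 117 of the 250 bases of Klf3 come before its first exon, 148 of Klf7 and 153 of Klf11. The E-box CACGTG, the letters that CLOCK and BMAL1 bind, occurred in Klf4, Klf6 and Klf11 and in 6.02% of all promoters. The windows ran from 59.2% GC in Klf7 to 78.4% in Klf3, above the median of 52.4% over all promoters. Members with higher and with lower values in YKL both carried GC boxes. These matches describe letters in a window and are no evidence of binding.

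Klf10 rose in YKL and was the only member that passed the threshold, and after 48 h it stood first among the members in level per length. The other members held values in both directions. In edgeR's quasi-likelihood test with Benjamini-Hochberg adjustment over all tested genes, 1 of 10 members was higher and 0 lower at an adjusted p under 0.05, where 3.54% of all tested genes passed, 2.10% higher and 1.44% lower. At an unadjusted p under 0.05 the set held 4 members, Klf10 on the higher side and Klf3, Klf6 and Klf7 on the lower, where 21.2% of all tested genes passed, 11.3% higher and 9.90% lower. Since the contrast was known when the set was made, nothing is read from these counts. The median log2 fold change of the members was 0.13, beside -1e-04 over all tested genes, and 6 values were above 0 and 4 below.

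Klf10 (ENSMUSG00000037465, chromosome 15, 38291463 to 38300706, mm10, no exon shared with another gene) is a repressor that acts through Sin3 and dampens the inhibitory SMAD loop of TGF-beta signalling. Replicates 1 and 2 gave 2720 and 2362 counts under DMSO, and under YKL they gave 5062 and 5711. Scaled for library size by TMM, these were 81.3 and 74.9 CPM for DMSO and 165 and 177 CPM for YKL. The lowest YKL library was thus 2.03-fold above the highest DMSO library, and the most distant pair of libraries differed 2.37-fold. The means were 78.1 ± 4.50 and 171 ± 8.54 CPM (SD, n = 2 each), a 2.19-fold difference, with a fitted log2 fold change of 1.13 ± 0.18 (standard error). The replicate libraries of Klf10 lay close together, at a log2 ratio of 0.12 in DMSO and -0.10 in YKL, and 78.1% and 75.9% of the tested genes had a ratio at least as far from 0. Its call was lost without YKL replicate 1 or YKL replicate 2 although the fitted changes there were 1.19 and 1.08.

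Klf11 (ENSMUSG00000020653, chromosome 12) is the closest relative of Klf10, a Sin3-binding repressor best known from pancreatic beta cells. Its levels were 47.7 and 55.8 CPM in DMSO and 60.9 and 80.1 CPM in YKL. Both YKL values were above both DMSO values, but the 2 YKL libraries were farther apart than the groups' nearest values, and the fitted change of 0.45 ± 0.21 did not pass the threshold. Per length, the level of Klf10 was 1.77 and 1.40 times that of Klf11 in the DMSO libraries and 2.82 and 2.30 times in the YKL libraries.

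The other Sin3-binding members did not share the size of the Klf10 difference. Klf9, which is induced by glucocorticoids and thyroid hormone, had 55.8 and 48.5 CPM in DMSO and 56.6 and 48.7 CPM in YKL, so the groups overlapped and the fitted log2 fold change was 0.01 ± 0.19. Klf13, an activator of the chemokine gene Ccl5 in late-activated T cells, had 260 and 290 CPM in DMSO and 166 and 235 CPM in YKL. Both YKL libraries were lower, with YKL replicate 1 the farthest down, and the fitted change was -0.46 ± 0.21. Klf16, a GC-box repressor expressed in the brain, had 52.9 and 52.8 CPM in DMSO and 55.2 and 69.4 CPM in YKL, a change of 0.24 ± 0.19 that rested mainly on YKL replicate 2. None of these passed the threshold. Levels per length are given as reads per kilobase of exon on the CPM scale (RPKM). Summed over the 6 genes of this subfamily, Klf14 included at 0 counts, they were 102 and 104 RPKM in DMSO and 114 and 133 RPKM in YKL. That sum includes Klf10 itself, at 19.5 and 17.9 RPKM in DMSO and 39.5 and 42.4 RPKM in YKL.

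**Figure D1:**
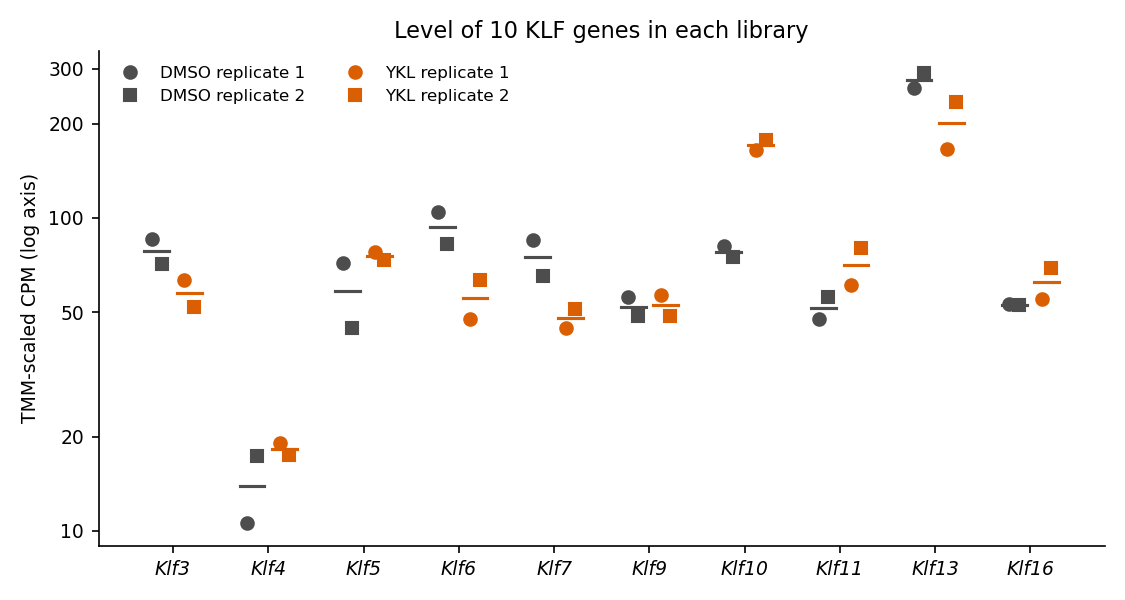
Level of each of the 10 KLF genes in TMM-scaled CPM on a log axis, with 1 point per library (circles, replicate 1; squares, replicate 2; grey, DMSO; orange, YKL) and a line at each group mean. Klf10 sits at 74.9 to 81.3 CPM in DMSO and at 165 to 177 CPM in YKL, while the 4 points of Klf9 lie between 48.5 and 56.6 CPM.

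Among the activators, Klf6 and Klf7 had lower values in YKL and Klf4 and Klf5 higher ones. Klf6 (ENSMUSG00000000078, chromosome 13, 5861482 to 5870394), a broadly expressed factor induced by tissue injury, had 104 and 82.8 CPM in DMSO and 47.7 and 63.2 CPM in YKL. The groups did not overlap, the means differed 1.69-fold, and the fitted log2 fold change of -0.75 ± 0.21 was the lowest of the set, short of the threshold. Klf7, known for its role in axon growth, was at 85.0 and 65.5 CPM in DMSO and at 44.6 and 51.3 CPM in YKL (-0.65 ± 0.20). Of its exonic bases, 39.3% are shared with the antisense gene Gm26649, which had 0 counts in every library. The strand setting of the counting is not given, so reads from the shared bases may be missing from both genes. The level of Klf7 per length may then be too low.

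The 2 activators with higher YKL values differed mostly through 1 DMSO library each. Klf5, which maintains proliferating epithelium, had 72.0 and 44.6 CPM in DMSO and 78.1 and 73.3 CPM in YKL, so that DMSO replicate 1 lay beside the YKL libraries and DMSO replicate 2 below them. Its fitted change of 0.38 ± 0.24 became 0.77 without DMSO replicate 1, where it passed the threshold, and 0.04 without DMSO replicate 2. Klf4, a pluripotency factor that also drives epithelial differentiation, had the fewest CPM of the set, at 10.6 and 17.3 CPM in DMSO and 19.1 and 17.4 CPM in YKL. Here DMSO replicate 1 was the low library, and the change of 0.39 ± 0.30 went to 0.08 without it and to 0.75 without DMSO replicate 2. Both genes had a log2 ratio of 0.68 in size between the DMSO libraries, which 15.6% of the tested genes reached, whereas the median over all tested genes was 0.29.

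Klf3 (ENSMUSG00000029178, chromosome 5), the CtBP-binding repressor of the set, had 85.9 and 71.1 CPM in DMSO and 63.3 and 51.9 CPM in YKL. The groups did not overlap, and the fitted change of -0.45 ± 0.20 did not pass the threshold. Of its exonic bases, 3.59% lie under the antisense gene Gm20033, whose counts were 164 and 102 in DMSO and 130 and 57 in YKL.

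In 9 of the 10 members both YKL libraries lay on one side of both DMSO libraries, above them in 5 and below them in 4. That arrangement was found in 52.3% of all tested genes, 27.0% above and 25.3% below. It again belongs to the contrast used for the choice, and in Klf4 and Klf5 the gap between the nearest libraries was 1.01-fold and 1.02-fold.

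The calls moved with the tool and the libraries. DESeq2's Wald test passed 2 members, Klf6 and Klf10 (10.2% of all genes with an adjusted p passed), and edgeR without the low-count filter passed 3, Klf6, Klf7 and Klf10 (5.79%). Without DMSO replicate 1 the members passed were Klf5 and Klf10 (7.61%), and without DMSO replicate 2 they were Klf6, Klf7 and Klf10 (14.0%). Without YKL replicate 1 or YKL replicate 2 no member passed, at 0.606% and 0.402% of all genes. Klf10 was called in 10 of the 12 alternatives, and the 2 exceptions were those without a YKL library.

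In the authors' deposited table of their own comparison, 6 of the 10 members had an adjusted p under 0.05, as had 27.8% of all genes listed there. Klf10 and Klf11 were higher and Klf3, Klf6, Klf7 and Klf13 lower. The authors' deposited table gives log2 fold changes of 1.05 for Klf10, 0.40 for Klf11 and -0.70 for Klf6. Its normalised means did not follow the mean deposited counts by a common factor. In the authors' deposited table the mean of Klf9 is 1428 and that of Klf6 is 2025, while the mean counts are 1674 and 2399. Relative to the mean count, only 50.5% of 12205 genes lay within 5% of the median ratio of 0.989. The cause was not tested.

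**Figure D2:**
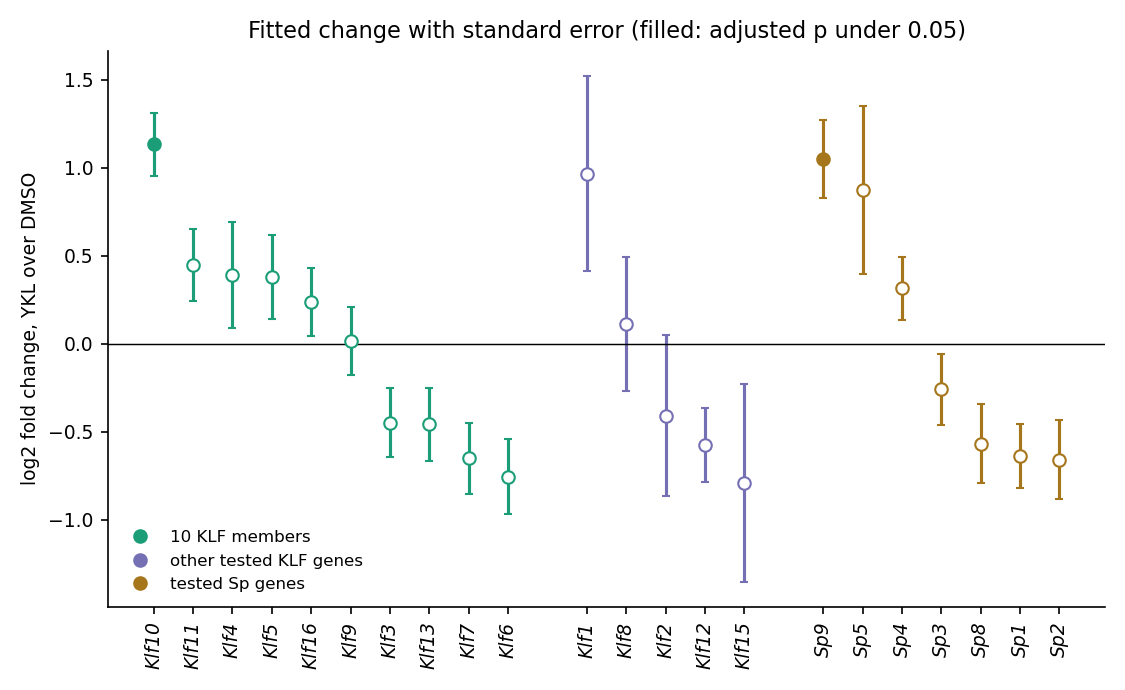
Fitted log2 fold change of YKL over DMSO with its standard error for the 10 KLF members (green), the 5 other tested KLF genes (purple) and the 7 tested Sp genes (brown), ordered by size within each set, with filled points at an adjusted p under 0.05. Klf10 at 1.13 and Sp9 at 1.05 are filled, and the other members run from 0.45 for Klf11 to -0.75 for Klf6.

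Levels of different genes were compared per length, as RPKM from the deposited exon lengths. In DMSO the order was led by Klf13 at 36.6 ± 2.80 RPKM (SD, n = 2), followed by Klf6 at 21.3 ± 3.46, Klf16 at 19.8 ± 0.0299, Klf10 at 18.7 ± 1.08 and Klf9 at 16.0 ± 1.58 RPKM. Then came Klf11 at 11.9, Klf5 at 11.2, Klf7 at 9.25, Klf3 at 6.98 and Klf4 at 4.57 RPKM. Neighbours in that order whose library ranges overlapped were Klf6 and Klf16, Klf11 and Klf5, and Klf5 and Klf7.

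In YKL the first place went to Klf10 at 41.0 ± 2.04 RPKM, ahead of Klf13 at 26.6 ± 6.44 and Klf16 at 23.3 ± 3.76 RPKM, whose ranges overlapped. Klf11 at 16.3, Klf9 at 16.1, Klf5 at 14.6 and Klf6 at 12.6 RPKM formed a middle group in which each gene's range overlapped that of the next. Klf4, Klf7 and Klf3 followed at 5.99, 5.89 and 5.12 RPKM, again with overlapping ranges. Klf10 held rank 4 in both DMSO libraries and rank 1 in both YKL libraries, and its range did not meet that of Klf13 in YKL. By the group means, Klf6 went from rank 2 to rank 7, but its range overlapped that of Klf16 in DMSO and that of Klf5 in YKL. Against Klf6, the per-length level of Klf10 was 0.819 and 0.951 times as high in DMSO and 3.64 and 2.95 times as high in YKL.

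**Figure D3:**
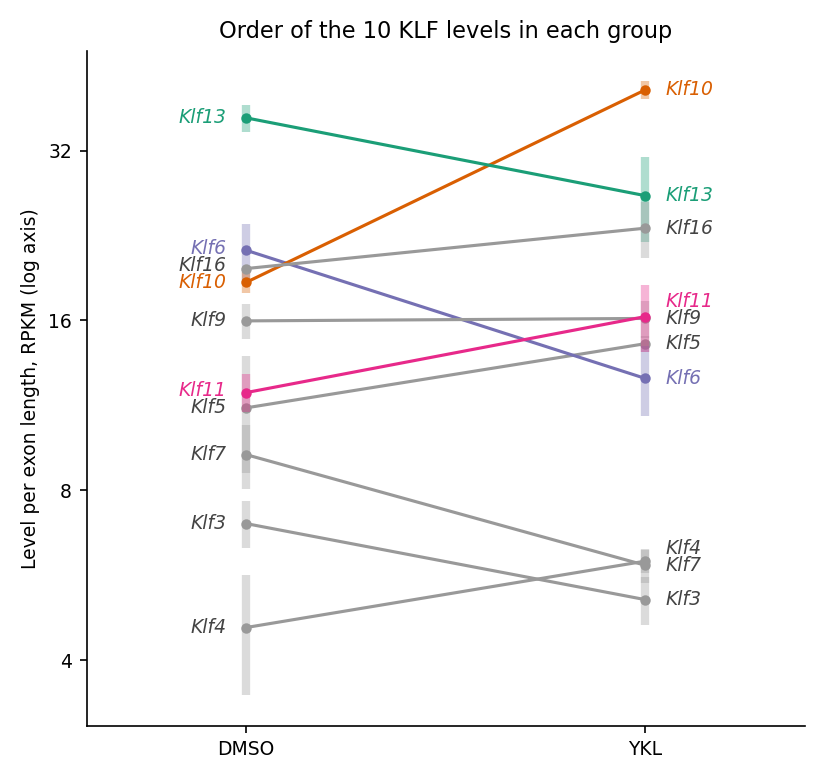
Mean level per exon length (RPKM, log axis) of the 10 KLF genes in DMSO and in YKL, joined by a line for each gene, with bars for the range of the 2 libraries of a group. Klf10 crosses from 18.7 to 41.0 RPKM and passes Klf13, which goes from 36.6 to 26.6 RPKM.

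The summed KLF level moved little while its composition differed. All 17 KLF genes together came to 177 and 162 RPKM under DMSO and to 167 and 189 RPKM under YKL, ranges that overlap. The 10 members made up 90.8% to 94.2% of these sums. Klf10 supplied 11.0% and 11.1% of the summed level in DMSO and 23.7% and 22.4% in YKL. Klf13 supplied 19.5% and 23.8% in DMSO and 13.2% and 16.5% in YKL. In bulk RNA, a shift in all cells and a shift in the share of cells that express a gene cannot be told apart.

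The 7 KLF genes outside the set were mostly scarce. Klf14 had no count, and Klf17 was at 0 in both DMSO libraries and at 4 and 1 counts in YKL, and neither passed the filter. Of the 5 tested, none was called by edgeR's quasi-likelihood test or by DESeq2. An unadjusted p under 0.05 in edgeR's test, found in 21.2% of all tested genes, was reached by 1. That gene was Klf12, a CtBP-binding repressor named after its values were seen, at 51.9 and 40.6 CPM in DMSO and 30.6 and 31.4 CPM in YKL (-0.57 ± 0.21). It shares chromosome 14 with Klf5, 556 kb away, whose fitted change had the other sign. The median log2 fold change of the 5 genes was -0.41.

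Of the Sp factors, the nearest relatives outside the family, 7 of 9 were tested and 1 rose, where 2.10% of all tested genes rose. Sp6 and Sp7 did not pass the filter. Sp9, a factor of the developing forebrain and limb, had 31.3 and 44.1 CPM in DMSO and 70.9 and 85.0 CPM in YKL (2.07-fold, log2 fold change 1.05 ± 0.22, edgeR adjusted p = 0.0379). The 2 groups did not overlap. Its adjusted p ranged from 4.12e-05 to 0.21 over the alternatives, and it was not called when libraries were scaled by totals or upper quartiles, when the prior was not robust, and when YKL replicate 1 or 2 was left out (changes of 1.18 and 0.91 there). The antisense gene Cir1 covers 5.35% of its exonic bases. Sp1, the founding GC-box factor and named after its values were seen, had 225 and 191 CPM in DMSO and 137 and 130 CPM in YKL (-0.64 ± 0.18) and was not called, with an adjusted p = 0.0861 in edgeR. An unadjusted p under 0.05 in edgeR's test was reached by 4 of the 7, Sp9 on the higher side and Sp1, Sp2 and Sp8 on the lower. Among all tested genes, 11.3% reached it on the higher side and 9.90% on the lower. Sp2 (-0.66) and Sp8 (-0.57) were also named after their values were seen. The list's median log2 fold change was -0.26, with 3 values above 0 and 4 below.

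Genes that work with KLF proteins were fixed as lists with earlier results of these data known. Among 16 corepressors and partners, none passed by edgeR or by DESeq2. An unadjusted p under 0.05 in edgeR's test was found in 1, Ctbp2 (0.56 ± 0.18), and in 21.2% of all tested genes. Ctbp2, and the genes named below only for an unadjusted p, were named after their values were seen. Their median log2 fold change was -0.12. By the mean CPM over the 4 libraries, not scaled by length, the highest were Ncor1, a nuclear receptor corepressor, at 371 ± 12.6 CPM (DMSO) against 288 ± 42.2 CPM (YKL; -0.37 ± 0.19), and Ctbp1, the partner of Klf3, at 364 ± 106 and 294 ± 27.9 CPM (-0.31 ± 0.22, but 0.02 without DMSO replicate 1). Of 8 ubiquitin ligases that act on KLF proteins or SMADs, none passed by either tool, 3 had an unadjusted p under 0.05, all lower (9.90% of all tested genes did so on that side), and the median was -0.42. These were Itch and the near-identical pair Siah1a and Siah1b, whose reads the counting may have split. Smurf2, which degrades SMADs and TGF-beta receptors, had a DMSO mean of 153 ± 6.31 CPM and a YKL mean of 117 ± 3.32 CPM (-0.39 ± 0.17), and Wwp1, a ligase of Klf5, had 83.4 ± 3.65 and 88.6 ± 2.06 CPM (0.09 ± 0.18).

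TGF-beta and SMAD signalling, the pathway that induces Klf10 and Klf11, held 33 tested genes of 35, of which 1 rose and 1 fell. Among all tested genes, 2.10% rose and 1.44% fell. Tgfbr2, the ligand-binding receptor, rose from 309 and 235 counts to 875 and 529 counts, or 8.35 ± 1.26 and 22.5 ± 8.58 CPM (log2 fold change 1.43 ± 0.33, edgeR adjusted p = 0.0474, 0.00049 to 0.41 over the alternatives). Tgif1, a homeobox corepressor of SMADs, fell from 102 ± 6.37 to 58.4 ± 2.30 CPM (-0.80 ± 0.18, edgeR adjusted p = 0.0431, 0.00234 to 0.273 over the alternatives). Both calls were lost without YKL replicate 1 and without YKL replicate 2. There, the change of Tgfbr2 was 0.98 and 1.77 and that of Tgif1 -0.76 and -0.85. The other 31 were not called, and the median of the list was -0.11. An unadjusted p under 0.05 in edgeR's test was found in 6 genes of the list, 2 higher and 4 lower. Among all tested genes, 11.3% were higher and 9.90% lower at that p.

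The clock genes were listed because Klf9 and Klf10 are known as outputs of the circadian clock. Of 22 tested, 2 fell and none rose, with 18 values below 0 and a median of -0.39. Over all tested genes, 1.44% fell and 2.10% rose, and the median was -1e-04. An unadjusted p under 0.05 in edgeR's test was found in 7, all lower, where 9.90% of all tested genes were lower at that p. Nothing is read from these counts, as the list was fixed with earlier results known. Cry2, a repressor of the clock, fell from 47.3 ± 5.71 to 23.2 ± 1.79 CPM (-1.03 ± 0.21, edgeR adjusted p = 0.0339, 0.000188 to 0.208 over the alternatives). Ciart, another clock repressor, fell from 20.3 ± 1.97 to 8.74 ± 1.17 CPM (-1.21 ± 0.28, edgeR adjusted p = 0.0468, 0.000633 to 0.305 over the alternatives). In both genes the 2 YKL libraries were below the 2 DMSO libraries, and both calls were lost without YKL replicate 1 (-0.95 and -1.35) and without YKL replicate 2 (-1.11 and -1.09). Bhlhe40, named after its values were seen, stood at 215 and 6652 counts in the DMSO replicates and at 3180 and 1931 in the YKL replicates. The harvest time of day is not given in the sources used here.

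The glucocorticoid receptor and its targets, listed for Klf9 and Klf13, had 12 tested genes and a median of 0.27. None was called by edgeR, and 3 had an unadjusted p under 0.05, as had 21.2% of all tested genes. Those 3 were Per1 on the lower side and Dusp1 and Fkbp5 on the higher, and DESeq2 called Fkbp5 alone. By the mean CPM over the 4 libraries, the highest were Mt1, a metallothionein, at 170 ± 122 and 220 ± 78.7 CPM, and Fkbp5, a chaperone of the receptor, at 141 ± 18.1 and 229 ± 17.8 CPM (0.70 ± 0.19, edgeR adjusted p = 0.0708). Cdk7, the gene of the inhibited kinase, had 21.2 and 17.4 CPM in DMSO and 11.0 and 11.6 CPM in YKL (-0.78 ± 0.27, edgeR adjusted p = 0.138).

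The genes whose pattern over the 4 libraries was most like that of Klf10 were sought among 11234 tested coding genes whose mean reached 5 CPM. Likeness was the Euclidean distance between log2(CPM + 0.5) values taken relative to the DMSO mean. The nearest were Enpp4, an ectoenzyme, at a distance of 0.053, and Sdc1, the cell surface proteoglycan syndecan-1, at 0.065. Ankrd44, Amigo2 and Smim19 followed at 0.086, 0.10 and 0.11. Enpp4 had 121 and 110 CPM in DMSO and 248 and 254 CPM in YKL, and Sdc1 had 45.6 and 41.2 CPM and 88.2 and 97.8 CPM. A distance over 4 libraries orders many genes almost alike.

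The members also differ in gene structure. The genes with lower values in YKL span 29.5 kb (Klf3), 8.91 kb (Klf6), 92.8 kb (Klf7) and 52.6 kb (Klf13). The 5 with higher values span 5.32 kb (Klf4), 16.3 kb (Klf5), 9.24 kb (Klf10), 11.5 kb (Klf11) and 10.2 kb (Klf16), and Klf9 spans 25.7 kb. Only Klf10 of these was called, and a link between span and change was not tested. The median span was 24.8 kb over 14141 tested protein-coding genes, 26.9 kb over those called higher and 20.3 kb over those called lower. The pentamer ATTTA, the core of AU-rich elements that speed mRNA decay, occurred 4 times in the 1492 bases of the longest annotated 3′ UTR of Klf10, or 2.68 per kb, a density reached by 24.1% of 13597 tested protein-coding genes. It was 2.87 per kb in Klf7, 2.48 in Klf9 and 2.25 in Klf6, and lowest in Klf5 at 0.543 per kb and Klf13 at 0.582 per kb, beside a median of 1.36 over those genes. Klf7 and Klf10 thus had the most ATTTA per kb of the members, and their fitted changes had opposite signs. A link between these densities and the changes was not tested.

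**Figure D4:**
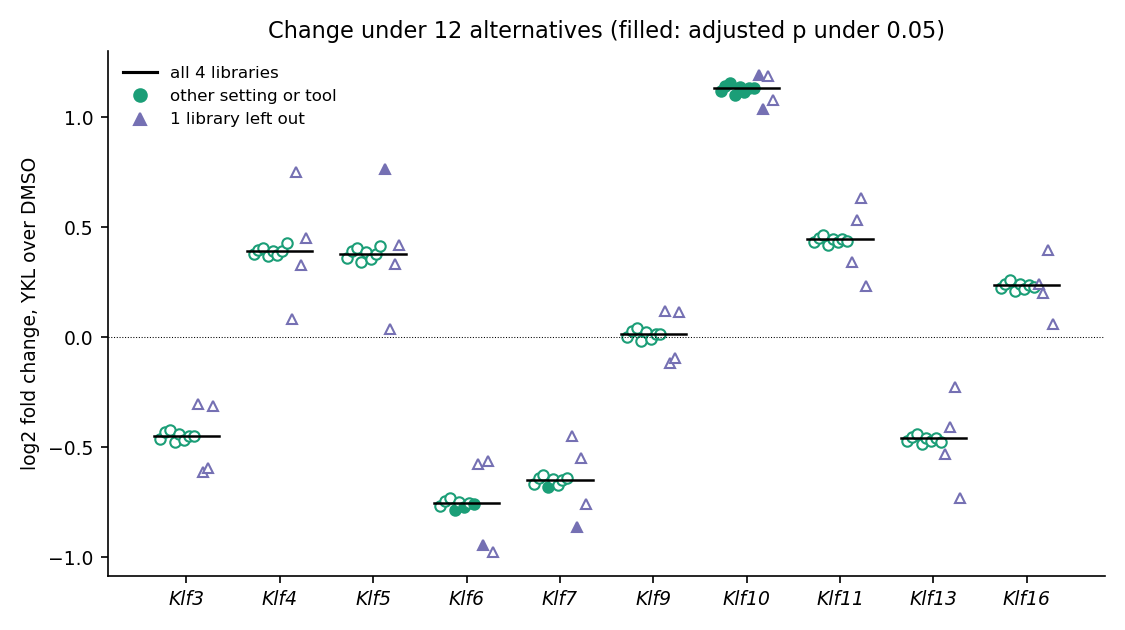
Fitted log2 fold change of each of the 10 KLF genes with all libraries (black line), under 8 other settings or tools (green circles) and with 1 library left out (purple triangles), filled at an adjusted p under 0.05. The values of Klf10 stay between 1.04 and 1.19, whereas those of Klf5 run from 0.04 to 0.77 and those of Klf9 from -0.12 to 0.12.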

How the data were processed

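Bulk RNA-seq libraries of RPP631 cells were grouped by their titles into DMSO and YKL, 2 each. STAR 2.5.2b, featureCounts, DESeq2 and the build mm10 are named per the submitters' processing notes; strand setting and annotation are not given in the sources used here. The authors deposited raw counts per gene with exon lengths. They also deposited a DESeq2 table with a normalised mean signal, log2 fold changes, a test score and p-values, used only as a comparison. No per-sample column was left unused, and 99.88% of the gene identifiers were in GENCODE M21.

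Counts were tested with edgeR 4.0.16 in R 4.3.3 (filterByExpr with a minimum count of 10 and a minimum total of 15, TMM scaling, robust quasi-likelihood fit, 2 residual degrees of freedom, Benjamini-Hochberg over 16749 genes, threshold 0.05). A standard error is the size of the log2 fold change over the root of its F statistic. CPM and RPKM use TMM-scaled library sizes. Scaling sets the middle of all changes near 0, so a shift shared by most transcripts would not show. Replicate libraries differed beyond counting noise (chi-square per degree of freedom 86.6 in DMSO and 37.1 in YKL). The procedure was tested on simulated data, where the fitted sizes were recovered but the share of false calls was above the nominal one. Members and lists were chosen with earlier results of these data known. Named genes were all members, other KLF and Sp genes that were called or failed the filter, Cdk7, the 5 genes nearest Klf10, and in each list the 2 called genes of smallest p per direction or, with no call, the 2 most abundant. Klf12, Sp1, Sp2, Sp8, Bhlhe40, Ctbp2, Itch, Siah1a, Siah1b, Per1 and Dusp1 fall outside this rule and were named after their values were seen. The alternatives were 3 other scalings, 2 other filters, DESeq2 1.42.0, no robust prior, the replicate number as a block and each library left out. With 2 libraries a group, precision rests on the spread and not on depth. Some marker genes are not reported here and were left out of the marker sums.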

Additional observations from a re-analysis of the deposited data

How the results depend on the processing

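Members called numbered 1 with all libraries, 3 without the filter, 2 by DESeq2, and 0 to 3 with 1 library left out; calls over all genes numbered 593, and 1740, 1466 and 71 to 2453 there. With library totals alone, upper quartile scaling and no robust prior, 169, 331 and 236 genes were called, Klf10 each time. The replicate number pairs nothing in the labels (correlation of same-numbered deviations 0.152); as a replicate block it gave 1387 calls and 2 members, Klf6 and Klf10 (8.28% of all genes). Under these settings (library totals, upper quartile, no robust prior) the Sp list had 0, 0 and 0 calls, TGF-beta signalling 0, 0 and 0, and the clock list 0, 1 and 0. The shares over all genes there were 1.01%, 1.98% and 1.41%. Without the filter, by DESeq2 and with the block the counts were 3, 2 and 1 for Sp, 5, 5 and 4 for TGF-beta signalling, 7, 4 and 6 for the clock and 1, 1 and 1 for glucocorticoid genes. Over all genes, 5.79%, 10.2% and 8.28% were called there. A filter of 5 CPM in 2 libraries left 1 call in TGF-beta signalling and 1 in the clock list, where 4.82% of all genes were called. With 1 library left out the counts ran from 0 to 1 for the other KLF genes, 0 to 3 for Sp, 0 to 1 for corepressors, 0 to 2 for ubiquitin ligases, 0 to 8 for TGF-beta signalling, 0 to 8 for the clock and 0 to 2 for glucocorticoid genes; the lone library of a group is then assumed to vary like the other group. Each list's highest count came from the fit without DMSO replicate 2, which also called the largest share of all genes. Without YKL replicate 2, where that share was smallest, none of these lists had a call. Nothing is read from these ranges. The sign of Klf9 turned with RLE scaling (-0.0008), no filter (-0.016) and DESeq2 (-0.0067). It also turned without DMSO replicate 2 (-0.12) and without YKL replicate 1 (-0.095), within -0.12 to 0.12 with 1 library left out. That of Ctbp1 turned without DMSO replicate 1 (range -0.62 to 0.023), and that of Mt1 without DMSO replicate 1 and without YKL replicate 2 (-0.06, range -0.22 to 1.35). The members' median log2 fold change ran from -0.04 without DMSO replicate 2 to 0.15 with upper quartile scaling. The other 9 members kept their sign in all 12 alternatives. The cause of these moves was not tested.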
